A study of Mus musculus with 8 samples.

Results

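Secretoglobins are small secreted proteins of the uteroglobin family. The genes read here on arrays of whole mouse skin were Scgb1b24, Scgb1b27, Scgb1b30, Scgb1c1, Scgb1a1 and Scgb3a1. These 6 genes, of 20284 genes named on the array, were chosen by symbol with their values in these data already known. The rule took every non-control probe whose RefSeq accession maps to one of the 6 symbols, which gave 7 probes in 25 spots per array. Scgb1b30 has 2 probes and each other gene has 1, and all 7 probes passed the filter on dim probes. The DTG group consists of 4 samples of mouse skin and the Control group of another 4. The study concerns mouse skin overexpressing the RNA-binding protein Musashi1, per its title, and the labels give neither a meaning for DTG nor the promoter, strain or age. Total RNA was amplified, labelled with Cy3 and hybridised to 1 array per sample, and the processed signal is a brightness in arbitrary units. The labels do not say whether the skins came from separate animals, so a p-value here reflects the spread over these arrays only, and that spread may be technical.

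Mice carry a large cluster of paired secretoglobin genes on chromosome 7. Scgb1b genes encode the alpha subunits of androgen-binding protein, and Scgb2b genes encode the beta-gamma subunits that pair with them. The mouse protein is known from saliva and tears, where it is secreted by salivary and lacrimal glands. Scgb1a1 encodes the club cell secretory protein of the airway, Scgb3a1 an airway and glandular secretoglobin, and Scgb1c1 a secretoglobin known from olfactory mucosa. A RefSeq table, assembly GRCm38.p6, lists 53 Scgb symbols, of which 19 are Scgb1b and 29 are Scgb2b. Probes named 14 of the 53 symbols, 4 of them Scgb1b and 7 Scgb2b. In that table Scgb2b24 and Scgb1b24 are neighbours on opposite strands, and so are Scgb2b27 and Scgb1b27, while Scgb1b30 follows Scgb1b27.

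The start regions of the 3 Scgb1b members are shown because Scgb1b27 and Scgb1b30, which lay lower in DTG skin, resemble Scgb1b24, which lay higher, and that of Scgb1c1 as a less similar chromosome 7 member. Each window holds 250 bases before and 50 after the RefSeq start, 5′ to 3′ on the gene's strand, from RefSeq with build GRCm38.p6. Capitals mark the motif TATAAAA where it stands on the gene's strand.
Scgb1b24 (chr7:33743533-33743832, plus strand): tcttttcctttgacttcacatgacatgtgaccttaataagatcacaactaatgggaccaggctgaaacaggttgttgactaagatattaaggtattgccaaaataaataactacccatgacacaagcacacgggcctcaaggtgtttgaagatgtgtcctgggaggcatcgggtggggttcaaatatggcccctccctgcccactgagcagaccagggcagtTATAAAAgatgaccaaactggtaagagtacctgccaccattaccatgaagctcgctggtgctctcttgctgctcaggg
Scgb1b27 (chr7:34021231-34021530, plus strand): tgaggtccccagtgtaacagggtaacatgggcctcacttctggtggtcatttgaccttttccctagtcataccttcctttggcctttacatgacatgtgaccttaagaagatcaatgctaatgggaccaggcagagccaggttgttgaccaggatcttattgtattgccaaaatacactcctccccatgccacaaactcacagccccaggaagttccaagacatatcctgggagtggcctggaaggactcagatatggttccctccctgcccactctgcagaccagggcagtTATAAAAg
Scgb1b30 (chr7:34095181-34095480, plus strand): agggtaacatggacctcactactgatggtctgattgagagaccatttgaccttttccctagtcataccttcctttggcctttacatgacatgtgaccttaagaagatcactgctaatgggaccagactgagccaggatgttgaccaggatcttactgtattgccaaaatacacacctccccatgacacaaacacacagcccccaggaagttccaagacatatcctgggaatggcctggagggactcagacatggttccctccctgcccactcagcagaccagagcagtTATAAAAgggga
Scgb1c1 (chr7:140845315-140845614, plus strand): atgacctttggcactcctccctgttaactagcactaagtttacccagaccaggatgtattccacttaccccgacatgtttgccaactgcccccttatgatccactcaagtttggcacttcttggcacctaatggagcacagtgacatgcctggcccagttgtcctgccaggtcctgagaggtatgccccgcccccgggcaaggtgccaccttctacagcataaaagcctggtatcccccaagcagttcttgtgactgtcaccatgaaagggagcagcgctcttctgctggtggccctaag
Windows were matched for 5 of the 6 members; that of Scgb3a1 is not shown and Scgb1a1 was not matched. The motif begins at base -28 from the RefSeq start in Scgb1b24, at base 43 in Scgb1b27 and at base 39 in Scgb1b30. It stands in the other windows on neither strand, and 3.27% of 32851 promoter windows hold it on the gene's strand, 5.48% on either. In local alignments, Scgb1b27 and Scgb1b30 were 89.9% identical over 296 columns, Scgb1b24 and Scgb1b30 80.4% over 230, and Scgb1b24 and Scgb1b27 79.1% over 230. The half-site AGAACA of steroid receptors, searched on both strands, is in none of the 5 member windows and in 19.0% of all windows. It does stand in the windows of Scgb2b2, Scgb2b20 and Scgb2b24, and not in that of Scgb2b27. A match is only a run of letters and marks no known binding site.

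Some measures of the arrays moved with the group. Spots well above background, as the scanner software flags them, made up 68.8% to 71.6% of spots on DTG arrays and 79.5% to 85.1% on Control arrays. The mean signal of negative-control spots was 22 to 32.5 on DTG arrays and 6 to 14.7 on Control arrays. The dimmest spot well above background read 83.7 to 112 on DTG arrays and 22.9 to 39 on Control arrays. All 8 arrays lay on 1 slide, DTG in row 2 and Control in row 1, so the row and the group cannot be told apart. All samples are labelled male, yet Xist, the RNA of the inactive X chromosome, exceeded the Y-linked Eif2s3y on 5 arrays, DTG 1, 3 and 4 and Control 2 and 4. Results are therefore also given with this Xist class as a covariate and within each class. Msi1 itself, on probe A_55_P2062688, had a level of 4.01 ± 0.16 (SD, n = 3) in DTG skin, with 1 outlier-flagged spot left out, and -2.80 ± 2.11 (SD, n = 4) in Control skin. Its log2 difference was 6.81 (SE 1.04, limma adjusted p = 0.0029), while the other probe, A_51_P296866, gave -0.03 (SE 0.14).

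A level below is the log2 signal minus the 75th percentile of all probes on that array, and a log2 difference is the DTG mean minus the Control mean, with the standard error (SE) of the limma fit over all probes. The members were chosen with this contrast in view, so their differences are descriptions without a test. Levels were not compared between probes, because probes differ in brightness. In whole skin, fewer cells of a type and less RNA per cell cannot be told apart.

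Scgb1b24, an alpha subunit gene of androgen-binding protein (RefSeq NM_001099329, probe A_55_P2167491), was brighter in DTG skin. Its signals were 452.9, 487.7, 616.1 and 161 in DTG skins 1 to 4, against 31.5, 37.8, 51.8 and 22.2 in Control skins 1 to 4. The lowest DTG signal, DTG 4, was still above the highest Control signal. The probe was well above background on 4 of 4 DTG arrays and on 2 of 4 Control arrays, Control 2 and 3. Its level was -3.38 ± 0.80 in DTG skin and -6.75 ± 0.55 in Control skin (SD, n = 4 each). The log2 difference was 3.37 (SE 0.42), and 1.93 (SE 0.25) with normexp background correction. No fold is given, since the probe passed the filter through DTG skin alone and Control skin lay near background.

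Scgb1b27, the alpha subunit gene next to Scgb2b27 (NM_009596, probe A_55_P2090725), differed in the opposite direction. Its signals were 181.8, 176.9, 189.8 and 158.6 in DTG skins 1 to 4, against 1459.8, 1008.6, 2118.7 and 1012.5 in Control skins 1 to 4. All arrays were well above background, and the 4 DTG values lay close together and below every Control value. Between arrays the coefficient of variation of the signal was 7.5% in DTG skin and 37.4% in Control skin. The level was -4.51 ± 0.08 in DTG skin and -1.46 ± 0.64 in Control skin (SD, n = 4 each). The log2 difference was -3.04 (SE 0.28), an 8.23-fold lower level, and 9 of 17765 tested genes, itself included, lay at least as far down. Under normexp background correction the difference was -2.42 (SE 0.25).

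Scgb1b30, the neighbour of Scgb1b27, was lower in DTG skin on both of its probes. Probe A_55_P2048594 read 144.4, 125.2, 160.4 and 293.3 in DTG skins 1 to 4, against 905.9, 673.2, 1289.2 and 867.3 in Control skins 1 to 4. The groups did not overlap, and DTG 4 was the brightest DTG array. Its log2 difference was -2.54 (SE 0.35), 5.8-fold lower, and -1.94 (SE 0.26) with normexp background correction. Probe A_55_P2048599 read 122.8, 117.3, 92.1 and 65 in DTG skins 1 to 4, against 581.3, 421.2, 859.4 and 442.5 in Control skins 1 to 4. Here DTG 4 was the dimmest array, and among the DTG arrays only DTG 1 was well above background. Its log2 difference was -2.64 (SE 0.31), and -1.72 (SE 0.23) with normexp background correction. This probe passed the filter through Control skin alone, so no fold is given. The probes thus gave a like difference between groups and opposite positions for DTG 4. Probe sequences were not used here, so how far one probe also detects near-identical paralogs was not tested for any Scgb1b or Scgb2b gene.

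Scgb1c1 (probe A_52_P156775) was brighter in DTG skin. Its signals were 721, 619.3, 528 and 381.6 in DTG skins 1 to 4, against 67.2, 67.1, 73.6 and 74.7 in Control skins 1 to 4. The Control values lay within 1.11-fold of each other, the DTG values within 1.89-fold, and the groups were far apart. The probe was well above background on all 8 arrays. The level was -2.87 ± 0.36 in DTG skin and -5.70 ± 0.19 in Control skin (SD, n = 4 each). The log2 difference was 2.83 (SE 0.19), 7.13-fold higher, with 72 of 17765 genes at least as far up, itself included. With normexp background correction the difference was 1.94 (SE 0.14).

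Scgb1a1, the club cell gene (probe A_51_P128575), differed less. Its signals were 816, 1013.5, 1149.4 and 779.7 in DTG skins 1 to 4, against 460.1, 771.5, 564.7 and 385.3 in Control skins 1 to 4. The dimmest DTG array, DTG 4, and the brightest Control array, Control 2, nearly touched. The log2 difference was 0.69 (SE 0.19), 1.62-fold higher, and 1244 of 17765 genes lay at least as far up. The probe is printed 10 times on each array, and 8 to 10 of its spots entered each mean. Its spots varied by 2.92% to 5.81% within an array, against 18.5% between DTG arrays and 30.8% between Control arrays (coefficient of variation). Spots of 1 array thus varied less than arrays of 1 group.

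Scgb3a1 (probe A_51_P110341) overlapped between the groups. Its signals were 2118, 1347.2, 2094.5 and 1221 in DTG skins 1 to 4, against 1123.3, 1848.9, 1058.4 and 996.6 in Control skins 1 to 4. DTG 1 and DTG 3 were the brightest, and Control 2 lay above DTG 2 and DTG 4. The level was -1.29 ± 0.41 in DTG skin and -1.60 ± 0.31 in Control skin (SD, n = 4 each), a log2 difference of 0.31 (SE 0.23). Its 10 spots varied by 2.49% to 5% within an array, against 28.2% between DTG arrays and 31.7% between Control arrays.

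**Figure D1:**
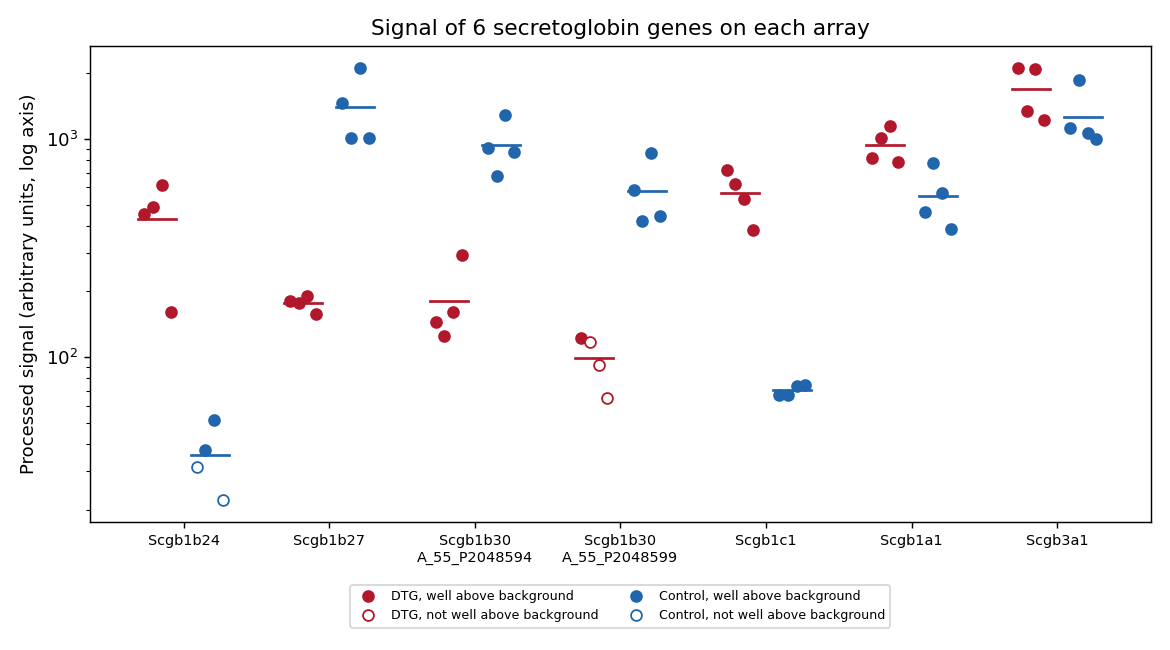
Processed signal (arbitrary units, log axis) of each probe of the 6 genes on the 4 DTG arrays (red, left) and the 4 Control arrays (blue, right), replicates 1 to 4 in order. Bars are group means and hollow points are spots not well above background; groups overlap only for Scgb3a1.

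In the fit over all genes, 5 of the 6 members passed an adjusted p of 0.05 (limma, Benjamini-Hochberg over 17765 genes), 3 higher and 2 lower, beside 32.4% of all genes. Scgb3a1 did not pass, but it did with spike-in scaling. Scgb1a1 lost its call without DTG 2, at 0.68, without DTG 3, at 0.60, and within either Xist class. Groups did not overlap for the same 5 members, beside 34.6% of all genes, 11.4% with DTG above and 23.2% with DTG below. Of all genes 11.1% were called higher and 21.3% lower, and the median log2 difference was -0.15. Lower genes made up 65.6% of calls here, 41.6% without scaling and 7.5% with scaling on spike-in spots, under which the median was 0.32. Nothing is read from these counts, since the members were chosen on this contrast.

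**Figure D2:**
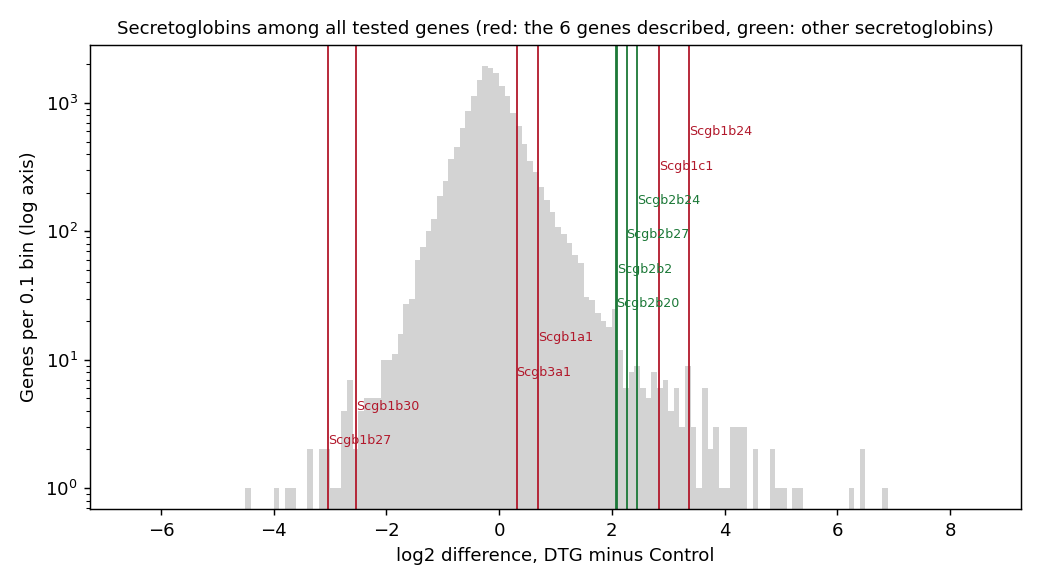
Number of genes (log axis) by log2 difference, DTG minus Control, in bins of 0.1, for the 17765 genes tested. Red lines mark the 6 genes described and green lines 4 other secretoglobins, which lie between 2.07 and 2.45; Scgb1b27 lies at -3.04 and Scgb1b24 at 3.37.

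The remaining genes of the family were led by beta-gamma subunit genes that were higher in DTG skin. Of a list of 18 further secretoglobins, written with earlier results of these data known, 7 had a probe and 4 passed the filter: Scgb2b2, Scgb2b20, Scgb2b24 and Scgb2b27. All 4 were called higher and 0 lower, beside 11.1% of all genes called higher and 21.3% lower. Their median log2 difference was 2.18, beside -0.15 over all genes. Whether these probes detect separate transcripts was not tested.

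Scgb2b24, the partner of Scgb1b24 on the opposite strand, read 671.3, 733.7, 627 and 198.1 in DTG skins 1 to 4, against 84, 83.9, 125.7 and 54.8 in Control skins 1 to 4. The log2 difference was 2.45 (SE 0.43, limma adjusted p = 0.004), and the groups did not overlap. Under normexp background correction the difference was 1.82. DTG 4 was far below the other DTG arrays, as it was for Scgb1b24. Scgb2b27, the partner of Scgb1b27, read 6766.1, 6260.7, 5354.5 and 2676.4 in DTG skins 1 to 4, against 1245.4, 538.8, 1789.8 and 685.9 in Control skins 1 to 4. It rose by 2.26 (SE 0.47, limma adjusted p = 0.0079), while its neighbour Scgb1b27 had a difference of -3.04. Every DTG array was thus brighter than every Control array for Scgb2b27 and dimmer than every Control array for Scgb1b27.

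Scgb2b2, another beta-gamma subunit gene, read 5548, 6056.9, 5350.4 and 3051.2 in DTG skins 1 to 4, against 1217.5, 701.7, 1654.8 and 827.3 in Control skins 1 to 4. It rose by 2.10 (SE 0.35, limma adjusted p = 0.003). Probe A_55_P2058201 of Scgb2b20 read 7994.8, 8188.3, 7062.1 and 4100.5 in DTG skins 1 to 4, against 1755.9, 923, 2268.9 and 1180.1 in Control skins 1 to 4. Scgb2b20 rose by 2.07 (SE 0.36, limma adjusted p = 0.0039), although its other probe, A_55_P2057004, was not well above background on any array. Levels of these 4 genes were lowest on DTG 4 among the DTG arrays, and DTG groups lay above Control groups throughout.

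Scgb1b2, Scgb2b19 and Scgb2b26 did not pass the filter. Scgb1b2 read 20.9 to 27.2 on DTG arrays, 0 of 4 well above background, and 24.3 to 51.1 on Control arrays, 2 of 4 above. Scgb2b26 read 19.8 to 26.2 on DTG arrays and 15.4 to 41.1 on Control arrays, with 1 Control array above background. Scgb2b19 read 21.3 to 28.4 on DTG arrays and 5.8 to 9.8 on Control arrays, none above background. Those values lie near the negative-control means of 22 to 32.5 on DTG arrays and 6 to 14.7 on Control arrays, so no difference is given. Scgb2b15, found by symbol beyond the list, was also not well above background on any array.

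**Figure D3:**
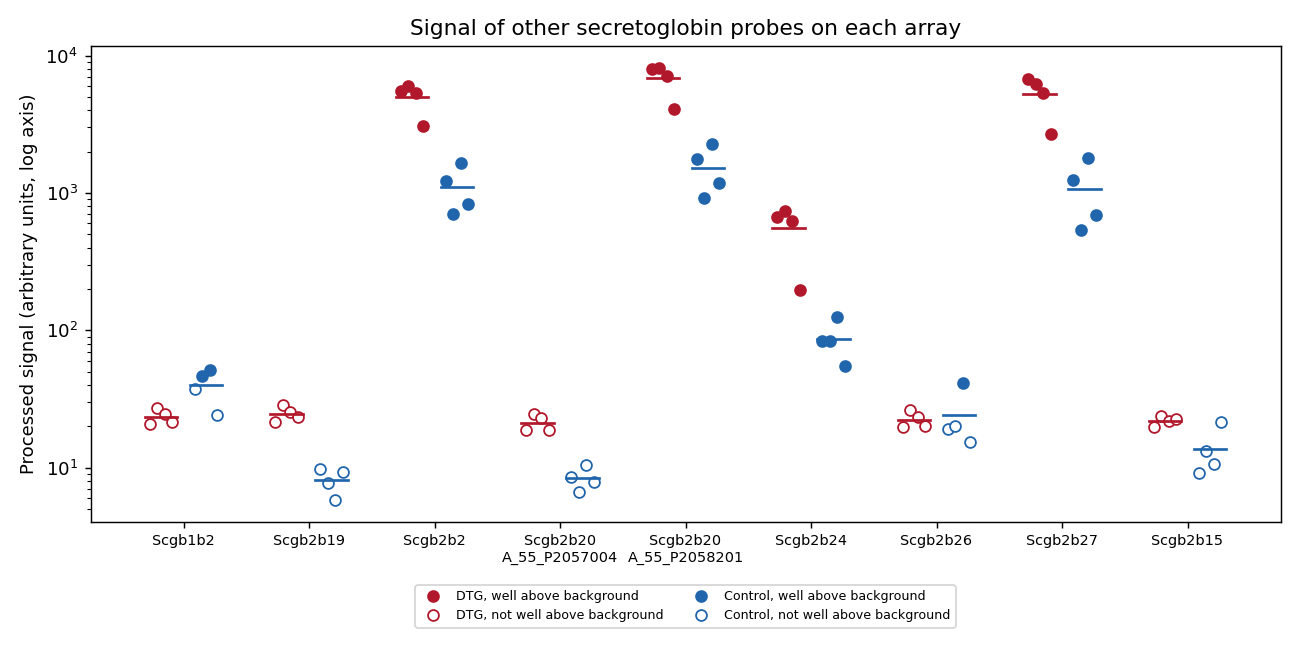
Processed signal (arbitrary units, log axis) of the other secretoglobin probes on the 4 DTG arrays (red, left) and the 4 Control arrays (blue, right). Bars are group means and hollow points are spots not well above background; Scgb2b2, Scgb2b20, Scgb2b24 and Scgb2b27 lie higher on every DTG array.

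Replicates were also compared within groups, through each array's deviation from the mean of its own group, which the difference between groups does not enter. Scgb1b24 and its partner Scgb2b24 deviated together, with a Pearson correlation of 0.96 over 8 arrays. Their deviations on DTG 4 were -1.16 for Scgb1b24 and -1.24 for Scgb2b24. Scgb1b27 and its partner Scgb2b27 had a correlation of 0.87, although their group differences were opposite. Scgb1b27 correlated as closely with genes that are not its neighbours, at 0.88 with Scgb2b2 and 0.87 with Scgb2b20. The deviations of Scgb1b27 within DTG skin were small, -0.08 to 0.08, so its correlations rest mainly on the Control arrays. Among the beta-gamma subunit genes, Scgb2b20 correlated at 1 (rounded) with both Scgb2b2 and Scgb2b27, and Scgb2b2 at 0.99 with Scgb2b27. Scgb2b24 correlated with them at 0.79 to 0.81.

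The 2 probes of Scgb1b30 gave different correlations with these genes. Probe A_55_P2048599 correlated at 0.98 with Scgb2b27 and 0.86 with Scgb1b27, while probe A_55_P2048594 correlated at 0.17 with Scgb2b27 and 0.58 with Scgb1b27. The correlation between these 2 Scgb1b30 probes was 0.18. Within Control skin both were lowest on Control 2 and highest on Control 3. Probe A_55_P2048594 deviated there by -0.64 and 0.59, and A_55_P2048599 by -0.6 and 0.73. On DTG 1, 2 and 4 their deviations had opposite signs, with 0.87 for A_55_P2048594 and -0.48 for A_55_P2048599 on DTG 4. Of the DTG arrays, only DTG 1 was well above background for A_55_P2048599, whereas A_55_P2048594 was above on all 8 arrays. Scgb1c1 correlated at 0.77 with Scgb2b27 and 0.57 with Scgb1b24. The values of Scgb1a1 were 0.11 with Scgb2b27 and 0.63 with Scgb1b24, and those of Scgb3a1 were 0.03 and 0.48. Scgb1a1 and Scgb3a1 correlated at 0.52 with each other. These correlations describe 8 arrays of 1 slide, whose points share array and depth of signal, and no test was made.

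**Figure D4:**
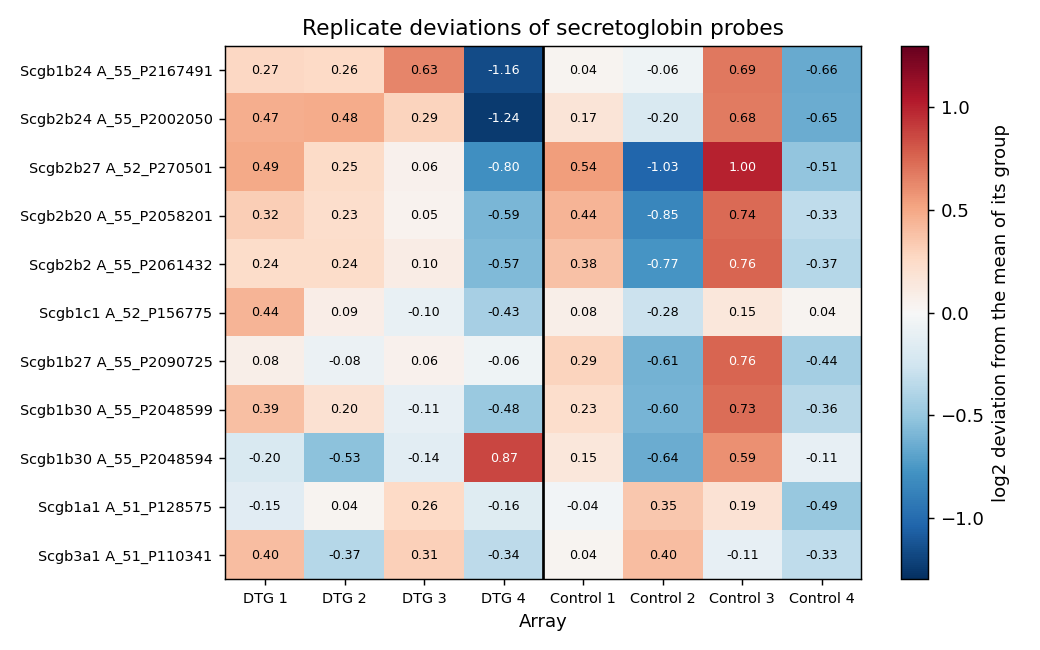
Deviation of each array's log2 level from the mean of its own group, for 11 secretoglobin probes (rows) on the 4 DTG arrays (left) and the 4 Control arrays (right). Scgb1b24 and Scgb2b24 share the low value on DTG 4, and Control 2 is low and Control 3 high for Scgb1b27, Scgb2b2, Scgb2b20 and Scgb2b27.

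Scgb3a1 was picked for a search of like genes by its mean over 8 arrays, a rule of choice that says nothing of its level against other probes. The 4 genes whose deviations were most like its own, among 17277 genes with values on all arrays, were Galnt16 (r = 0.989), Adprh (r = 0.985), Prmt2 (r = 0.984) and Col4a1 (r = 0.979). Galnt16 encodes a glycosyltransferase and Col4a1 a basement membrane collagen. Their log2 differences lay between -0.01 and 0.18.

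Some secretoglobins were ordered by the Xist class inside the Control group. Control 1 and 3, where Xist was low, were brighter in signal than Control 2 and 4 for Scgb1b27 and both probes of Scgb1b30. The same held for Scgb2b2, Scgb2b20, Scgb2b27 and, narrowly, Scgb2b24, at 84 on Control 1 against 83.9 on Control 2. On signal, Scgb1b24, Scgb1c1, Scgb1a1 and Scgb3a1 did not follow this order, and the last 2 were brightest on Control 2. Scgb1b24 did on scaled levels, -6.71 and -6.06 on Control 1 and 3 against -6.81 and -7.41 on Control 2 and 4. So did Scgb1c1, at -5.62 and -5.55 against -5.98 and -5.66, while Scgb1a1 and Scgb3a1 did not. With 2 Control arrays in each class this was not tested, and DTG 2 is the only DTG array with low Xist. The Scgb1b27 difference was -2.90 (SE 0.24) with the class as a covariate, -2.49 (SE 0.12) within the arrays of high Xist and -3.64 (SE 0.30) within those of low Xist. The Scgb1b24 difference was 3.51 (SE 0.41) with the covariate, 3.64 (SE 0.58) at high Xist and 3.26 (SE 0.37) at low Xist. Scgb1c1 gave 2.88, 2.92 and 2.81 in the same order. For Scgb1b30 the differences were -2.51, -1.99 and -3.44 on probe A_55_P2048594 and -2.48, -2.23 and -2.92 on probe A_55_P2048599. Scgb1a1 gave 0.72, 0.75 and 0.66. Scgb3a1 gave 0.25 with the covariate, 0.40 at high Xist and -0.03 (SE 0.20) at low Xist, where a single DTG array stands against 2 Control arrays and its spread is borrowed from them.

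**Figure D5:**
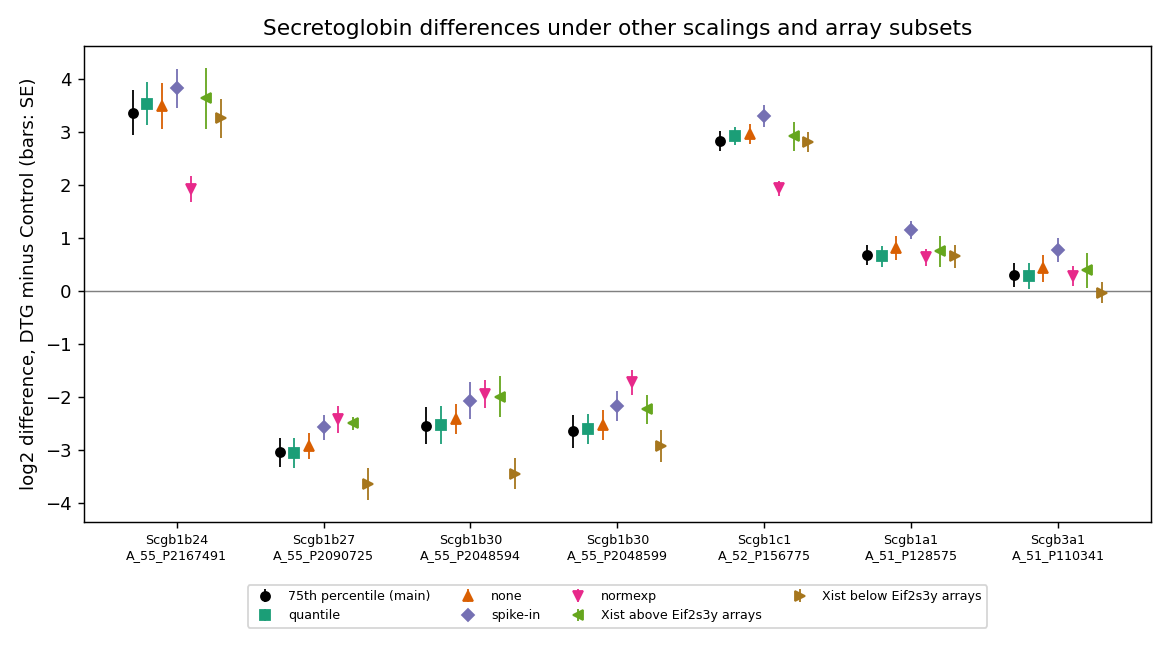
Log2 difference, DTG minus Control, of each member probe under the main scaling, 3 other scalings, normexp background correction and within each Xist class. Points are differences and bars their standard errors; Scgb1b24 and Scgb1c1 stay above 1.9, Scgb1b27 and Scgb1b30 below -1.7, and Scgb3a1 crosses zero.

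Skin was checked against 11 defining genes of epidermis, dermis and hair follicle. All 11 passed the filter, 10 of them well above background on at least 3 DTG arrays, and keratin Krt14 averaged 4.72 in DTG skin and 4.94 in Control skin (log2 level). The list had 0 genes higher, 4 lower and 7 not called, beside 11.1% of all genes higher and 21.3% lower. Its median was -0.44, beside -0.15 over all genes. Those that fell were Krt5 and Krt1, keratins of basal and suprabasal epidermis, with differences of -0.59 and -0.72, and Krt10 and Dsg1a, with -0.44 and -0.49 (limma adjusted p = 0.009, 0.022, 0.027 and 0.035 in this order). With scaling on spike-in spots none of the 4 was called, and Krt10 changed sign to 0.03. The signal summed over the list, in multiples of the array's 75th percentile, was 150.95 to 180.27 on DTG arrays and 190.49 to 265.81 on Control arrays.

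Markers of skin, salivary, lacrimal and airway glands and cells were set beside the members. Of 18 sebaceous gland genes, all tested, 2 were higher, 2 lower and 14 not called, beside 11.1% of all genes higher and 21.3% lower. Their median log2 difference was -0.16, beside -0.15 over all genes. Awat2, a wax synthase gene, rose by 1.12 (SE 0.18, limma adjusted p = 0.0027) and Far2, a fatty acyl reductase gene, by 0.31 (limma adjusted p = 0.026). Fa2h, a fatty acid hydroxylase gene, fell by 0.53 (SE 0.10, limma adjusted p = 0.0041), and Scd1, a desaturase gene, fell by 0.31 (limma adjusted p = 0.047). With spike-in scaling neither was called, at -0.06 for Fa2h and 0.15 for Scd1. The signal summed over the 16 of them with values on all arrays was 97.75 to 107.84 on DTG arrays and 107.35 to 126.32 on Control arrays.

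Salivary, lacrimal and sweat gland genes went both ways. Of 17 on the array 12 were tested, with 3 higher, 5 lower and 4 not called, beside 11.1% of all genes higher and 21.3% lower. Their median was -0.42, beside -0.15 over all genes. Of those lower, Dcpp1, Dcpp2 and Pip passed the filter through Control skin alone and were not well above background on any DTG array. Bhlha15, a transcription factor of secretory cells, rose by 1.72 (SE 0.28, limma adjusted p = 0.0028), and Lpo, lactoperoxidase, rose by 1.54 (SE 0.30, limma adjusted p = 0.0058). Car6, a secreted carbonic anhydrase, fell by 1.59 (SE 0.25, limma adjusted p = 0.0026) and the amylase gene Amy1 fell by 0.67 (SE 0.11, limma adjusted p = 0.0023). With spike-in scaling Car6 was still called lower, at -1.12, and Amy1, at -0.20, was not called. Smgc, Prol1, Cst10 and Dcpp3, defining genes of these glands, were not well above background on any array. The signal summed over the 17 was 6.03 to 9.03 on DTG arrays and 5.82 to 6.94 on Control arrays.

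Airway markers gave 2 calls among 13 tested and nasal markers 3 among 7, all lower, beside 32.4% of all genes called. Of 15 airway club and secretory cell genes 13 were tested, with 0 higher, 2 lower and 11 not called and a median of -0.16. Cyp2f2, a club cell cytochrome P450 gene, fell by 0.77 (SE 0.11, limma adjusted p = 0.0012) and, at -0.31, was not called with spike-in scaling, while Scgb1a1 had a difference of 0.69. The other gene called lower, Bpifb1, passed the filter through Control skin alone and was not well above background on any DTG array. Hp and Gabrp had differences of -0.20 and -0.28, and Bpifa1 was not well above background on any array. The summed signal was 28.54 to 32.34 on DTG arrays and 34.37 to 40.85 on Control arrays. Of 9 olfactory and nasal gland genes on the array 7 were tested, with 0 higher, 3 lower and 4 not called and a median of -0.25. Omp, the olfactory marker protein gene, fell by 0.73 (limma adjusted p = 0.0037) and, at -0.26, was not called with spike-in scaling. Bpifb3 was not well above background on any DTG array and passed the filter through Control skin alone. Bpifb5 had a difference of -0.84 (limma adjusted p = 0.049), with 1 of 4 DTG arrays well above background and overlapping groups, and was not called with spike-in scaling. Bpifb4 had a difference of -0.25. The summed signal was 1.74 to 9.57 on DTG arrays and 1.31 to 9.75 on Control arrays. Most of that sum came from Cyp2g1, whose mean signal was 23332.1 in DTG and 18113.8 in Control skin. Its levels spread widely within groups (SD 1.62 in DTG and 2.23 in Control skin, n = 4 each). The part of any of these glands or cell types in the secretoglobin differences was not tested.

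Of 18 genes known to regulate secretoglobins or the hormones that act on them, 13 were tested. Of these 1 was higher, 2 were lower and 10 were not called, beside 11.1% of all genes higher and 21.3% lower. Their median was -0.14, beside -0.15 over all genes. Elf3, an epithelial ETS factor, rose by 1.44 (SE 0.25, limma adjusted p = 0.004). Srd5a1, which makes dihydrotestosterone, fell by 0.65 (SE 0.16, limma adjusted p = 0.015) and, at -0.18, was not called with spike-in scaling. The glucocorticoid receptor gene Nr3c1 had a difference of -0.24 (limma adjusted p = 0.068). The epithelial transcription factor genes Nkx2-1, Foxa1 and Foxa3, and Srd5a2, were not well above background on any array. The summed signal was 39.73 to 42 on DTG arrays and 38.56 to 47.4 on Control arrays.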

How the data were processed

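Whole skin RNA of 4 DTG and 4 Control samples, grouped by the tissue label, was measured on one-colour Agilent arrays. The authors deposited spot intensity on a linear scale from Agilent Feature Extraction. Per the file headers its version was 11.5.1.1, whereas 10.7 stands in the submitters' processing notes. That signal is background-corrected and not scaled between arrays. Their deposited value table of 43861 probes, also an intensity, matched the mean processed signal within a relative tolerance of 0.001 for 99.6% of values and served as an alternative.

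Accessions named 26762 of 55681 probes through RefSeq, assembly GRCm38.p6, used for names, neighbours and promoter windows. The file headers name mm9. Processed signals were put on the log2 scale, minus each array's 75th percentile, without outlier-flagged spots (0.55% of probe values). Probes well above background on 3 of 4 arrays of a group were kept, and the brightest kept probe stood for its gene. DTG and Control were compared with limma 3.58.1 in R 4.3.3 (lmFit and eBayes, two-sided), with Benjamini-Hochberg adjustment over 17765 genes. The fit was tested on simulated data. Promoters were aligned with Biopython 1.88. Precision is limited by having 4 arrays a group.

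The members and lists were chosen with earlier results of these data known. Text names all members, every listed secretoglobin with a probe, up to 4 genes of each other list with the smallest p, Xist, Eif2s3y and the 4 genes most like the member with the highest mean over 8 arrays (Scgb3a1, a rule of choice only). Msi1, Scgb2b15, Krt14, Dcpp1, Dcpp2, Pip, Cyp2g1 and genes at background on all arrays were named beyond this rule, after their values were seen. Some regulator genes are not reported here. The design had assumed gene names and a mean signal column. Accessions and a median signal column were found instead, and the main levels rest on the processed signal. Alternatives were other scalings, background correction, filters, probe averaging, the value table, Xist classes and leaving out each array.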

Additional observations from a re-analysis of the deposited data

Results flagged for a closer look

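Levels of each secretoglobin probe were examined for 1 array far from the rest of its group, by the gap to the nearest array over the group's range, against Dixon's critical value, in 32 sets of 4 arrays. Chance flags about 1 in 20 such sets, and 3 of the 32 passed. The level of Scgb2b24 on DTG 4 was -4.25, with a ratio of 0.891. The level of Scgb2b2 on DTG 4 was -0.30, with a ratio of 0.83. DTG 4 was also the lowest DTG array for Scgb1b24, Scgb1c1, Scgb2b20 and Scgb2b27, without passing the critical value. The level of Scgb2b15 on Control 4 was -7.46, with a ratio of 0.85, on a probe not well above background on any array. Leaving out each array in turn, DTG 4 included, left Scgb2b2 between 1.84 and 2.35 and Scgb2b24 between 2.24 and 2.86, and both stayed called.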

How the results depend on the processing

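No paired analysis was possible because the labels give no replicate numbers, and the numbers used here follow deposit order. The count of genes called, 5754, was 3829 without scaling, 2627 within the high Xist class and 733 within the low Xist class, whose lone DTG array was taken to vary as the Control arrays do. Leaving out 1 array gave 4068 to 5167. Spike-in scaling moved Scgb1b27 to -2.57, Scgb1c1 to 3.30, Scgb1a1 to 1.16 and Scgb3a1 to 0.78, where Scgb3a1 was called higher. Normexp correction gave 1.93 for Scgb1b24, -2.42 for Scgb1b27, -1.94 for probe A_55_P2048594 and -1.72 for probe A_55_P2048599 of Scgb1b30, and 1.94 for Scgb1c1. The high Xist class gave -2.49 for Scgb1b27. The low Xist class gave -3.64 for Scgb1b27, -3.44 for probe A_55_P2048594 of Scgb1b30 and, in the other direction, -0.03 for Scgb3a1. The cause of these shifts was not tested.

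Members called numbered 4 to 6 over 13 alternatives and 4 to 5 when 1 array was left out. Scgb1a1 was not called without DTG 2, without DTG 3 or within either Xist class, and Scgb1b24 was not tested when all 8 arrays had to be above background. The other secretoglobins called numbered 3 to 6, and 4 whenever 1 array was left out; Scgb2b27 was not called within the low Xist class, at 1.74. Leaving out 1 array gave 3.15 to 3.76 for Scgb1b24, -3.24 to -2.79 for Scgb1b27, -2.83 to -2.34 and -2.84 to -2.40 for the Scgb1b30 probes, 2.69 to 2.98 for Scgb1c1, 0.53 to 0.81 for Scgb1a1 and 0.18 to 0.44 for Scgb3a1. Signals near background limit Scgb1b24 in Control skin and one Scgb1b30 probe in DTG skin. Normexp correction also made the differences behind the folds of Scgb1b27, probe A_55_P2048594 of Scgb1b30 and Scgb1c1 smaller.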
